A study of Sus scrofa with 36 samples.

Results

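The endothelial and angiogenic genes examined here were VEGFA, ANGPT1 and ANGPT2 (ligands), FLT1, KDR and TEK (their receptors), and PECAM1, CDH5, VWF and NOS3 (proteins of the vessel lining), followed in the adrenal glands of heat-exposed pigs. The 10 genes were listed by name, and every probe that carries 1 of the names, or a RefSeq transcript of 1 of the genes, was taken: 27 probes by the gene name in the scanner files, 1 by the name in another letter case and 7 by transcript. This gave 10 of the 11787 genes named on the array and 35 of its 60305 probes, of which 34 were tested. The adrenal gland is among the most densely vascularised organs, and thin-walled sinusoids carry blood from the steroid-producing cortex to the catecholamine-producing medulla. VEGFA, made by many cell types, binds the receptor tyrosine kinases FLT1 and KDR on endothelial cells, and KDR carries most of the growth and permeability signal while FLT1 binds the ligand tightly and signals weakly. ANGPT1 activates the receptor TEK (Tie2) and keeps vessels quiescent, and ANGPT2, stored and released by the endothelium itself, competes with it.

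The series holds 36 castrated male pigs with 1 array each, hybridised with Cy3-labelled RNA of the whole adrenal gland. They fell into 6 groups of 6: Creole, Large White and F1 (Large White x Creole) pigs under thermoneutral conditions (TN, 24 °C) or after heat stress (HS). The heat stress lasted 5 days by the series' design and 4 or 5 days by the study's methods. The series' design gives 32 °C for HS, whereas 30 °C stands in the array labels of these animals. TN pigs were slaughtered before the change in temperature and HS pigs after it, so that day of slaughter and temperature cannot be told apart. Litter, pen and parents are not given with the arrays, and p-values measure the spread between these pigs only. By the study's methods the pigs of each breed came in blocks of littermates, and the fits here treat littermates as independent. In a whole-gland extract, fewer endothelial cells and less RNA per cell cannot be told apart. The number of probes well above background ran from 42436 to 48060 per array, with a median of 45462.5 in TN and of 45554.5 in HS, and pairs of arrays correlated at 0.982 to 0.996. The arrays came from 5 slides, each with equal numbers of TN and HS pigs. Of the listed markers, 5 of 6 genes of the adrenal cortex and 4 of 5 of the medulla had a tested probe, which shows that they were detected and does not by itself identify the tissue. No probe was matched by name to the remaining genes, CYP11B1 and TH, which were not analysed here.

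Values below are log2 of the quantile-normalized spot intensity, and levels are not compared between genes. For each gene, the tested probe with the highest mean is called its reference probe. The remaining probes are given beside it, because probes of 1 gene gave different levels and differences. Some probes were copies of each other: the 35 probes hold 31 distinct sequences of 60 bases, and in VEGFA, FLT1, PECAM1 and CDH5 a pair of probes has the same sequence. These 4 pairs gauge the error of a single spot. Their values correlated between pigs within groups at r = 0.67 (FLT1) to 0.95 (CDH5) over 36 pigs, and the estimates of the copies differed by up to 0.08 on the log2 scale for HS minus TN and by up to 0.07 for Large White minus Creole. No member probe shared a run of 20 bases, on either strand, with a probe named for another gene. The FLT1 reference probe and TEK probe O3657 each share all 60 bases with an array probe that was matched to no gene. Those copies were not among the members and are not reported.

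None of the 10 genes passed the test between HS and TN. With limma and adjustment over all 45943 tested probes, 0 of the 34 member probes passed an FDR of 0.05, against 0.886% of all probes (407). The count over all probes was 221 without TN F1 replicate 3, 812 without HS Large White replicate 5 and 890 with the slide as a block, and the members' count was 0 in each. At an unadjusted p under 0.05 the count was also 0 of 34, against 13.4% of all probes (6153). The members' differences ran from -0.10 to 0.16, 21 above 0 and 13 below. The median absolute difference was 0.02 for the members and 0.05 for all probes, and the median over the 10 reference probes was 0.02. Over the 34 probes the highest upper bound of the 95% confidence intervals was 0.34, a 1.26-fold rise (ANGPT2). The lowest lower bound was -0.26, a 1.2-fold fall (VWF). These intervals hold for this fit and processing only. At VWF probe A_72_P442685 the difference was 0.02 with an upper bound of 0.15, and it ran up to 0.23 under other settings.

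**Figure D1:**
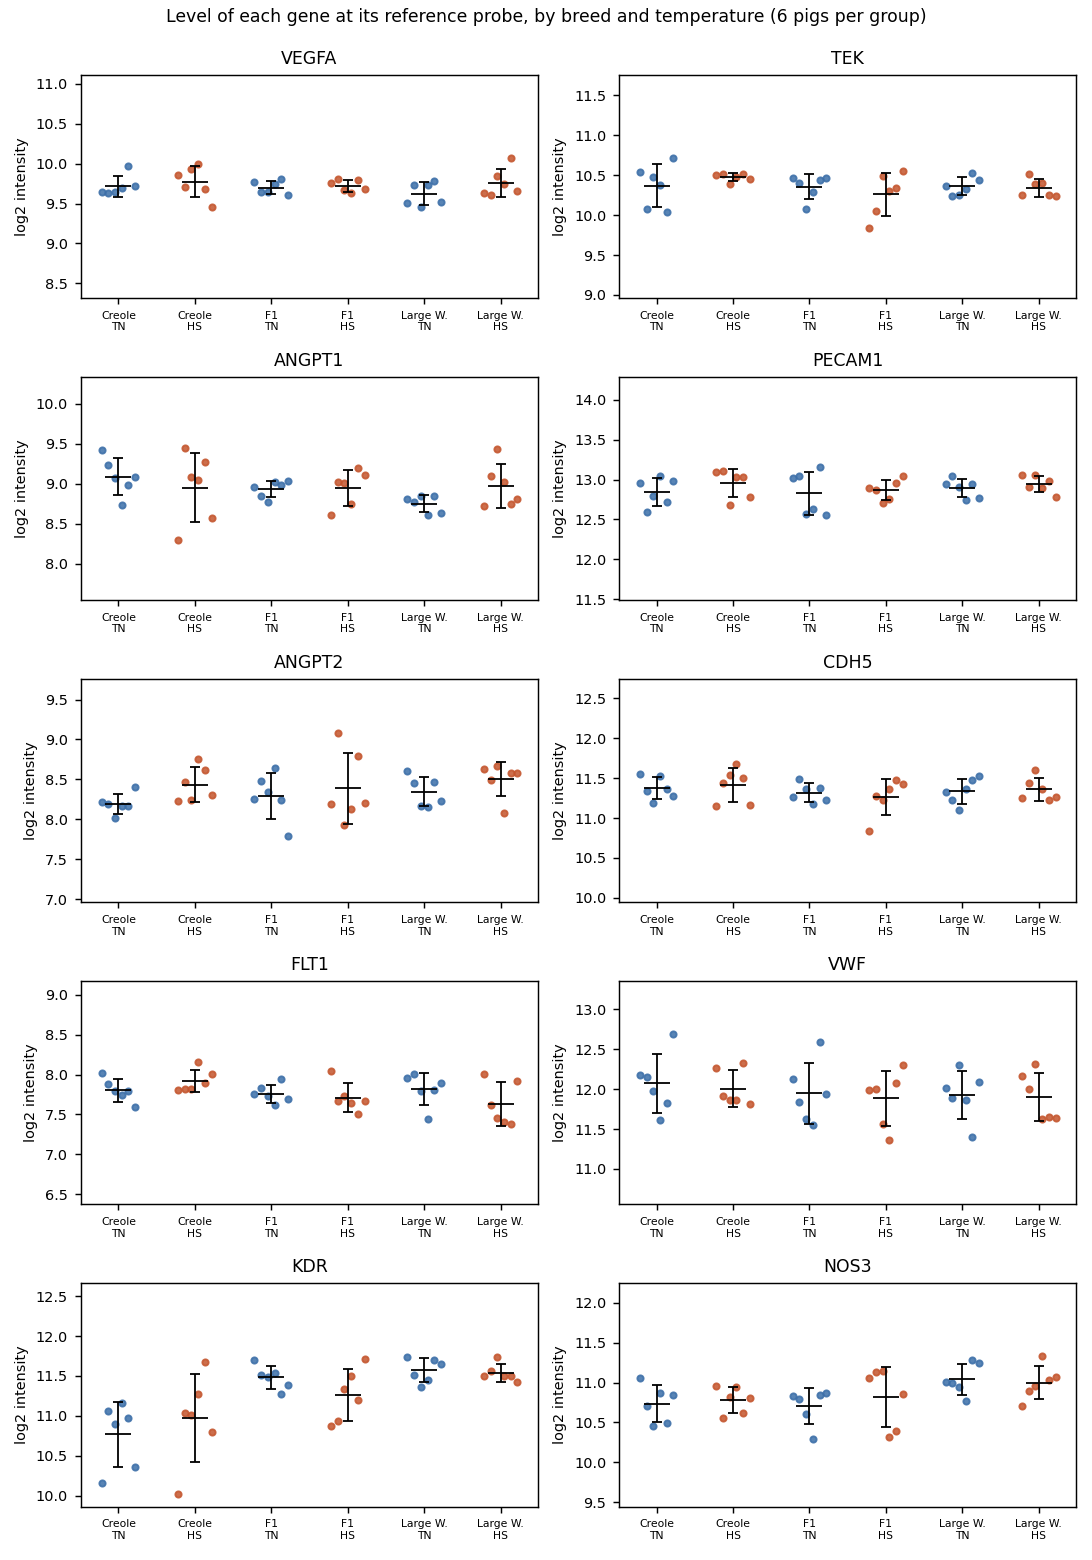
Log2 intensity (y axis, each panel spanning the same range) of the reference probe of each gene in the 6 groups on the x axis, blue for TN and orange for HS. Points are single pigs, and the bar with whiskers is the mean ± SD of 6 pigs. TN and HS overlapped in all 10 genes, and in the KDR panel the Creole pigs lay lowest and spread widest.

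Among the ligands, VEGFA (chr7:38746393-38762282 on Sscrofa11.1, as are the positions below) had 5 probes. At the reference probe the 18 TN pigs lay between 9.46 and 9.97 (median 9.67) and the 18 HS pigs between 9.46 and 10.08 (median 9.72). The groups overlapped over nearly their whole range, with 11 of 18 HS pigs above the TN mean of their breed. The difference was 0.07 (SE 0.05, 95% interval -0.02 to 0.17, limma's adjusted p = 0.552). The other 4 probes gave 0.01 to 0.08. One of them, O11835, reads the opposite strand of the reference probe. The pair is shown because the array here measures both strands of 1 stretch of the gene, and capitals mark the 38 bases of each probe that are the reverse complement of the other.
A_72_P414353 (reference): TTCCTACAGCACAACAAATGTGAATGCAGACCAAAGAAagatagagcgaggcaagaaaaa
O11835 (opposite strand): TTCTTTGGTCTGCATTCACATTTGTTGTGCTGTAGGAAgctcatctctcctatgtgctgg

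O11835 was well above background on all 36 arrays, between 6.22 and 6.66 in TN and 6.26 and 6.74 in HS. Its values correlated at r = 0.06 with those of the reference probe within groups (36 pigs). It differed by 0.02 (SE 0.04) between HS and TN, and the probes of both strands did not pass the FDR.

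ANGPT1 (chr4:29925203-30233434) had 2 probes. The reference probe lay between 8.60 and 9.43 (median 8.90) in TN and between 8.30 and 9.45 (median 9.02) in HS. HS pigs held both the lowest and the highest value, and the difference was 0.03 (SE 0.08, 95% interval -0.14 to 0.20, limma's adjusted p = 0.915). ANGPT2 (chr15:37544177-37600925) came closest to a difference among the members. Its reference probe lay between 7.79 and 8.64 (median 8.24) in TN and between 7.93 and 9.08 (median 8.48) in HS. The ranges overlapped, and 13 of 18 HS pigs lay above the TN mean of their breed. The difference was 0.16 (SE 0.08, 95% interval -0.01 to 0.34), with an unadjusted p of 0.059 and limma's adjusted p = 0.398. It was above 0 in each breed, at 0.24 in Creole, 0.16 in Large White and 0.10 in F1 pigs, each with an SE of 0.15. Within slides it was -0.32 on the slide with 2 TN and 2 HS pigs and 0.15 to 0.32 on the other 4. The second ANGPT2 probe, which correlated with it at r = 0.90 over 36 pigs, gave 0.08 (SE 0.08).

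Of the receptors, FLT1 (chr11:5620698-5797095) lay between 7.45 and 8.02 (median 7.80) in TN and between 7.38 and 8.15 (median 7.77) in HS at the reference probe. The HS range enclosed the TN range, and the difference was -0.04 (SE 0.06, limma's adjusted p = 0.839). Its other 3 probes ran from -0.10 to 0.02. A pair of them, A_72_P310443 and O10586, are copies of 1 sequence, shown because its 2 spots fell on either side of 0, at 0.02 and -0.05, and so display the error of a single spot.
A_72_P310443 and O10586: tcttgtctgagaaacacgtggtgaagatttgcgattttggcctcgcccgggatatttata

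KDR (chr8:41809116-41856379) lay between 10.16 and 11.74 (median 11.42) in TN and between 10.03 and 11.74 (median 11.38) in HS. The difference was -0.02 (SE 0.11, limma's adjusted p = 0.968), and the other 2 KDR probes gave -0.01 and -0.02. TEK (chr1:195938177-196052294) lay between 10.04 and 10.72 (median 10.39) in TN and between 9.84 and 10.55 (median 10.40) in HS. Its medians were nearly equal, and the difference was -0.0017 (SE 0.06, limma's adjusted p = 0.995), a sign that turned under other background settings. Its other 3 probes gave 0.02 to 0.09.

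The vessel-lining genes did not pass the test either. PECAM1 (chr12:14667643-14723296), the adhesion molecule CD31, lay between 12.56 and 13.15 (median 12.92) in TN and between 12.69 and 13.10 (median 12.93) in HS. The difference was 0.07 (SE 0.06, limma's adjusted p = 0.654), and the other 4 probes ran from -0.03 to 0.12. CDH5 (chr6:27108560-27142145), the cadherin of endothelial adherens junctions, lay between 11.10 and 11.55 (median 11.35) in TN and between 10.84 and 11.67 (median 11.36) in HS. Its 3 probes gave 0.0036 (SE 0.06), -0.0043 and -0.01 (the sign of the reference probe turned under other background settings), with limma's adjusted p from 0.952 to 0.989. NOS3 (chr18:6209218-6228912), the endothelial nitric oxide synthase, lay between 10.29 and 11.28 (median 10.84) in TN and between 10.32 and 11.33 (median 10.92) in HS. The difference was 0.04 (SE 0.08, limma's adjusted p = 0.878), and the other 2 tested NOS3 probes gave 0.02 and 0.08. The fourth NOS3 probe, A_72_P442218, was well above background on 8 of 36 arrays only and was not tested.

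VWF (chr5:64516627-64655938), the clotting factor that endothelial cells store and secrete, had the widest within-group spread of the 10 reference probes (SD 0.33). It lay between 11.40 and 12.69 (median 11.96) in TN and between 11.37 and 12.33 (median 11.95) in HS. The difference was -0.05 (SE 0.10, 95% interval -0.26 to 0.15, limma's adjusted p = 0.885). The 3 VWF probes are shown because they share no run of 20 bases and their values correlated at only r = 0.19 to 0.28 within groups over 36 pigs.
A_72_P293294 (reference): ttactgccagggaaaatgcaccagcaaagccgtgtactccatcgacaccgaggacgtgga
A_72_P442685: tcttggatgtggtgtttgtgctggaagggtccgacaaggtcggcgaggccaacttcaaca
O2738: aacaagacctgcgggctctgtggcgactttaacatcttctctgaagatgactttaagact

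A_72_P442685 and O2738 gave 0.02 (SE 0.07) and 0.07 (SE 0.04) for HS minus TN. These 2 probes were well above background on 29 and 31 of 36 arrays, while the reference probe was so on all 36.

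The response to heat was also compared between the breeds. The interaction of breed and temperature passed the FDR for 0 of 34 member probes and for 0% of all probes (F test of limma). Before adjustment 1 member probe, of ANGPT1, lay under 0.05, against 4.21% of all probes, and limma's adjusted p for it was 0.982. At this probe, which is not the reference probe, HS minus TN was -0.18 in Creole, 0.28 in Large White and -0.04 in F1 pigs, each with an SE of 0.13. At the reference probe of ANGPT1 the values were -0.14, 0.22 and 0.02, each with an SE of 0.14. Over the 10 reference probes, the order of the 6 group means differed from gene to gene. In none of the 10 were neighbours in that order apart by more than 1 within-group SD, and the distance from the highest to the lowest group mean ran from 0.13 (PECAM1) to 0.80 (KDR).

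**Figure D2:**
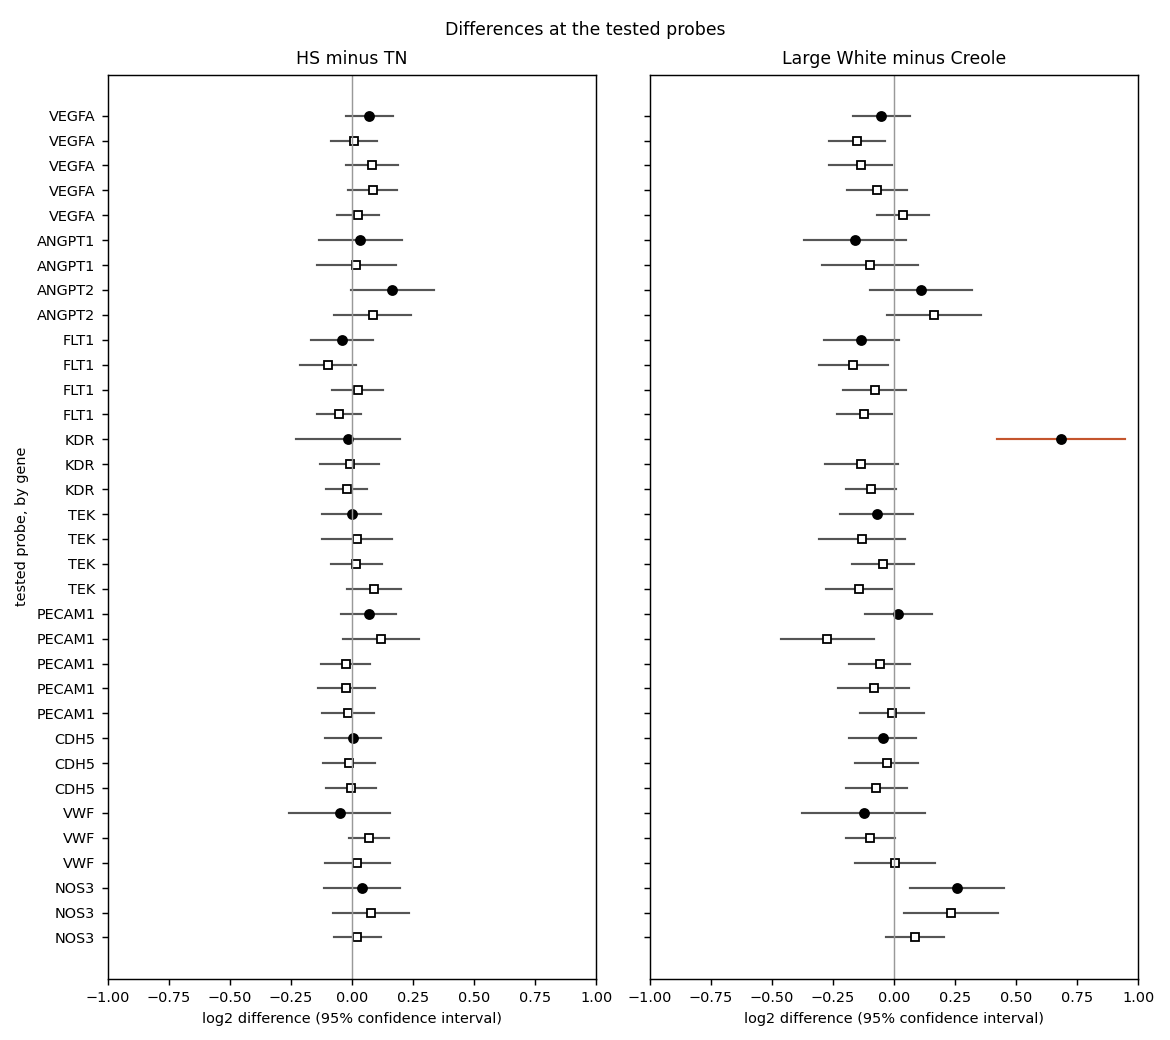
Log2 difference with its 95% confidence interval (x axes) at the 34 tested probes by gene (y axis), HS minus TN on the left and Large White minus Creole on the right. Filled circles are reference probes, open squares the other probes, and an orange interval passed an FDR of 0.05. On the left all intervals reach across 0, and on the right 1 KDR probe stands apart at 0.68.

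KDR was the member that passed the FDR between breeds, at 1 of its 3 probes. Its reference probe, A_72_P380298, was higher in Large White than in Creole pigs. The 12 Large White pigs lay between 11.36 and 11.74 (median 11.51), the 12 F1 pigs between 10.88 and 11.72 (median 11.43), and the 12 Creole pigs between 10.03 and 11.68 (median 10.99). All Creole pigs but 1 lay below the lowest Large White pig, and 5 of the 12 F1 pigs did. The exception was HS Creole replicate 5 at 11.68, so that the breeds overlapped through this pig. The difference was 0.68 (SE 0.13, 95% interval 0.42 to 0.95), a 1.61-fold higher level in Large White, with limma's adjusted p = 0.000401. The F test over the 3 breeds gave an adjusted p of 0.00101. Creole pigs also varied most at this probe, with an SD of 0.47 against 0.13 in Large White and 0.27 in F1. This difference in spread was not tested.

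The breed difference in KDR was present at both temperatures. In TN the means were 10.77 ± 0.41 in Creole and 11.57 ± 0.15 in Large White pigs (SD, n = 6), and in HS they were 10.97 ± 0.55 and 11.54 ± 0.11. F1 pigs had 11.48 ± 0.15 in TN and 11.26 ± 0.33 in HS. The F1 mean lay 0.16 above the mean of both parents (SE 0.11, 95% interval -0.07 to 0.38, limma's adjusted p = 0.657). On each of the 5 slides Large White was above Creole, by 0.44 to 1.60, the highest on the slide with 1 Creole pig. With the authors' normalized values the difference was 0.68, and it stayed past the FDR under all 42 alternative settings, leaving out any 1 pig included. None of these settings takes litter into account.

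The other 2 KDR probes did not pass the FDR, and their estimates had the opposite sign. The 3 are shown together because the breed result rests on only 1 of them. For A_72_P380298 and A_72_P442740, only the first 30 of 60 bases are printed. The scanner files place these at positions 5127 and 4131 of 2 different transcript records, and give no position for O306.
A_72_P380298 (first 30 bases): tctacatcatagtaaaagcggatttggttt
A_72_P442740 (first 30 bases): ttcaagtgttgttctttccaccgccaggaa
O306: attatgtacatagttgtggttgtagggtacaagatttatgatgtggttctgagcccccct

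At A_72_P442740 the Creole pigs lay between 8.45 and 9.21 (median 8.94) and the Large White pigs between 8.53 and 9.04 (median 8.79). At O306 the Creole pigs lay between 6.84 and 7.38 (median 7.09) and the Large White pigs between 6.88 and 7.21 (median 7.01). Both probes leaned the opposite way, with Large White minus Creole at -0.13 (SE 0.07, limma's adjusted p = 0.263) and -0.10 (SE 0.05, limma's adjusted p = 0.245). Within groups these 2 correlated with each other at r = 0.63 over 36 pigs, whereas A_72_P380298 correlated with them at 0.18 and -0.28. A_72_P380298 holds a stop codon in all 3 forward reading frames and the other 2 KDR probes have a frame without one. The reference probes of ANGPT2 and NOS3 also hold a stop codon in all 3 frames. No run of 20 bases of the 3 KDR probes occurs in any other probe on the array. Why the probes differ was not tested.

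**Figure D3:**
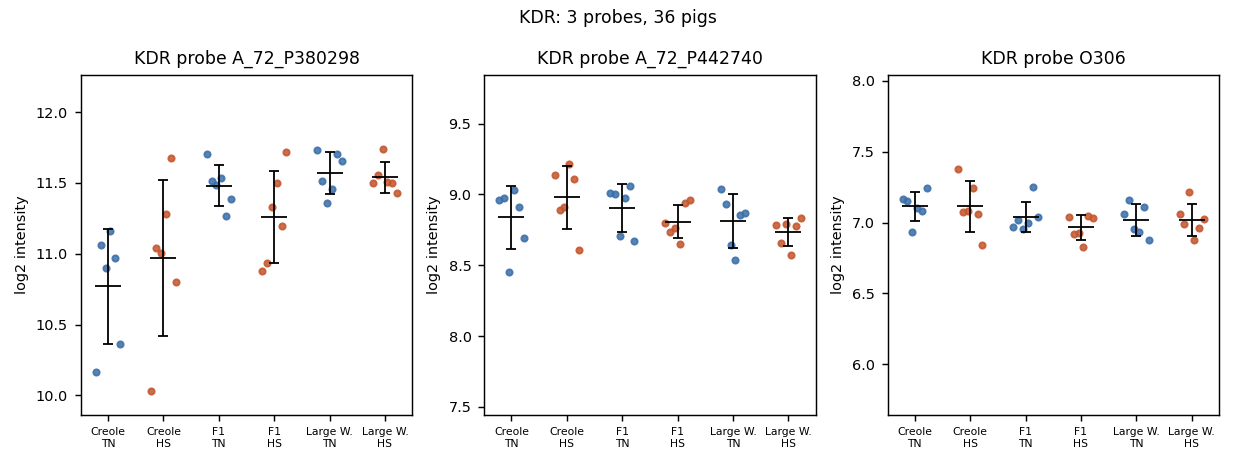
Log2 intensity (y axes, each spanning the same range) of the 3 KDR probes in the 6 groups on the x axis, blue for TN and orange for HS, with single pigs as points and mean ± SD of 6 pigs as bars. Creole pigs lay lowest at A_72_P380298 (median 10.99, against 11.51 in Large White) and not at the other 2 probes.

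Across the members, KDR was 1 of 34 probes past the FDR for Large White against Creole, or 2.94%, against 11.3% of all probes (5178). The F test over 3 breeds also called 1 of 34, against 10.4% of all probes. For F1 pigs against the mean of their parents, 0 of 34 probes passed, against 0.409% of all probes, and at an unadjusted p under 0.05 the count was 0 against 11% of all probes. At an unadjusted p under 0.05 there were 9 member probes for Large White against Creole, against 24.2% of all probes. Of the 34 probes, 25 were lower in Large White and 9 higher, and the median absolute difference was 0.10 for the members and 0.08 for all probes.

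Among the reference probes NOS3 had the lowest p after KDR, with Large White above Creole at all 3 tested probes, and did not pass the FDR. At the reference probe the Large White pigs lay between 10.71 and 11.33 (median 11.001), the Creole pigs between 10.45 and 11.06 (median 10.82) and the F1 pigs between 10.29 and 11.14 (median 10.83). The difference was 0.26 (SE 0.09, 95% interval 0.07 to 0.45, limma's adjusted p = 0.0743), and it passed the FDR when TN Creole replicate 1 or HS Large White replicate 1 was left out. The other 2 probes gave 0.23 (SE 0.09) and 0.09 (SE 0.06), and the probe at 0.23 shares 22 bases with the reference probe. Within slides the difference ran from 0.05 to 0.50.

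PECAM1 probes disagreed between the breeds. A_72_P218027 was lower in Large White pigs, which lay between 11.67 and 12.04 (median 11.90) against 11.77 and 12.55 (median 12.12) in Creole pigs. The difference was -0.27 (SE 0.09, limma's adjusted p = 0.0532), the lowest p of any member probe after KDR. It passed the FDR in 9 of the 42 alternatives, the slide as a block among them. The reference probe gave 0.02 (SE 0.07) and the other 3 gave -0.01 to -0.08. VEGFA leaned lower in Large White at 4 of 5 probes, with -0.05 (SE 0.06) at the reference probe and -0.15 (SE 0.06, limma's adjusted p = 0.0782) at A_72_P443769. FLT1 leaned lower at all 4 probes, from -0.17 to -0.08 with adjusted p from 0.122 upwards, and TEK at all 4, from -0.14 to -0.05. For the other reference probes Large White minus Creole was -0.16 (SE 0.10) for ANGPT1, 0.11 (SE 0.10) for ANGPT2, -0.05 (SE 0.07) for CDH5 and -0.13 (SE 0.12) for VWF. The intervals of these 4 reference probes span 0. Besides PECAM1 A_72_P218027, 2 VEGFA probes, 2 FLT1 probes and 1 TEK probe had intervals wholly below 0, and none of them passed the FDR.

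Pairs of the 10 genes correlated between -0.31 and 0.51 from pig to pig. After the group means were taken off, Pearson's r over 36 pigs was highest for ANGPT1 with CDH5 (0.51), PECAM1 with VWF (0.48) and KDR with CDH5 (0.46), and lowest for KDR with NOS3 (-0.31). VEGFA correlated with its receptors at -0.26 (FLT1) and -0.02 (KDR). The r of ANGPT1 with CDH5 was above that of 99.9% of all genes with ANGPT1 and of 98.7% of all genes with CDH5. For PECAM1 with VWF the shares were 99.6% and 98.1%, and for KDR with CDH5 98% and 97.4%. These pairs were picked as the highest. The correlations share their arrays and normalization and carry no test. The KDR values in these correlations rest on the probe A_72_P380298 alone.

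**Figure D4:**
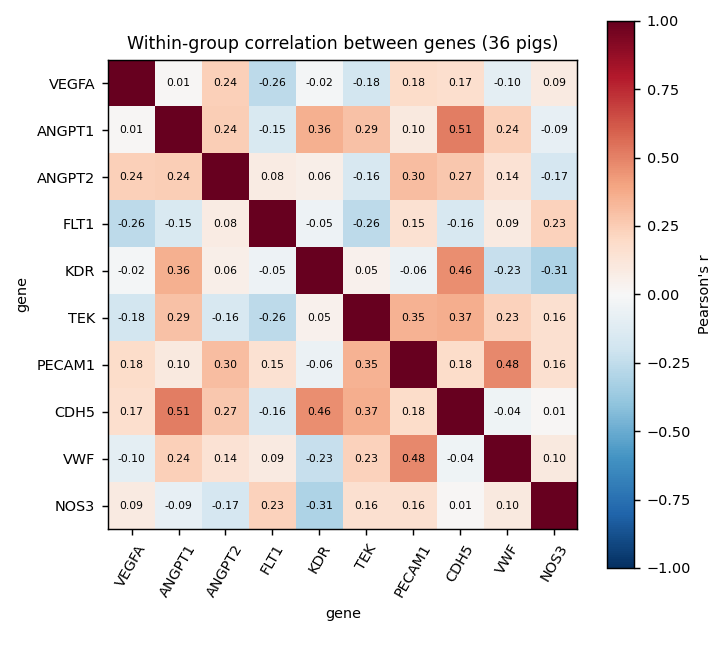
Pearson's r between the reference probes of the 10 genes (both axes) over 36 pigs after the mean of each of the 6 groups was taken off, with red above 0 and blue below. The highest pair is ANGPT1 with CDH5 (0.51) and the lowest KDR with NOS3 (-0.31).

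No member was among the 3 most alike genes of another, out of 10307 compared for each. By the same measure the genes most like VEGFA were IRF9 (0.72), ZNFX1 (0.69) and PML (0.69). Those most like NOS3 were ADCY4 (0.77), SLC9A3R2 (0.76) and ITPRIP (0.69). For the receptors the nearest genes were CTNS for KDR (0.71), LIPA for FLT1 (0.71) and SLC7A7 for TEK (0.76). For the remaining genes they were PRDM8 for ANGPT1 (0.64), CTNNBIP1 for ANGPT2 (0.79), IQGAP1 for PECAM1 (0.60), TCF7L1 for CDH5 (0.75) and BAIAP2 for VWF (0.72).

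Other genes of the same pathways were followed through lists, with 1 reference probe per gene. Between HS and TN 0.886% of all probes passed the FDR, so that counts of 0 in lists of this size are near the share of all probes. Between HS and TN, 0 of 8 tested genes of the VEGF and Tie pathways passed the FDR, with a median difference of 0.01 against 0.00 over all probes. The nearest were VEGFB, a further FLT1 ligand, at 0.11 (SE 0.04, limma's adjusted p = 0.163) and PTPRB, the phosphatase that restrains TEK, at -0.18 (SE 0.07, limma's adjusted p = 0.176). Of 20 tested genes of endothelial identity and junctions 0 passed (median -0.03), and 0 of 14 nitric oxide and vasoactive genes did (median 0.00). Hypoxia-response genes (0 of 11) and anti-angiogenic genes (0 of 4) did not pass either.

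Among the 7 Notch genes of the vessel wall 1 passed between HS and TN, HEY1, a transcription factor that Notch signalling induces. It fell by 0.37 on the log2 scale, from a mean of 9.02 in TN to 8.65 in HS (SE 0.08, limma's adjusted p = 0.0192). Of its 4 probes 3 passed the FDR. Of the 7 genes 5 had a difference below 0 and 2 above. The Notch ligand JAG1 gave -0.16 (SE 0.05, limma's adjusted p = 0.124), DLL4, HEY2 and NOTCH4 gave -0.01 to -0.04, and HES1 and NOTCH1 gave 0.07 each. Of the 3 markers of lymphatic endothelium, PROX1, its defining transcription factor, rose by 0.29 (SE 0.05, limma's adjusted p = 0.00596), from 8.31 to 8.60, at 2 of its 4 probes. The other 2 markers had the opposite sign and did not pass, with LYVE1 at -0.11 (SE 0.10) and PDPN at -0.0046 (SE 0.09).

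Between Large White and Creole pigs the counts of the lists, at 1 probe per gene, stand beside the 11.3% of all probes that passed the FDR in this comparison. In the VEGF and Tie pathways 0 of 8 genes passed the FDR, with a median of 0.05. Among the endothelial genes 2 of 20 passed, a share near that of all probes. Both were higher in Large White, while 14 of 20 had a difference below 0 (median -0.08). They were PLVAP, the protein of fenestral diaphragms, at 0.38 (SE 0.09, limma's adjusted p = 0.00365) and PROCR, the endothelial protein C receptor, at 0.32 (SE 0.10, limma's adjusted p = 0.0373). Of the 14 nitric oxide and vasoactive genes 3 passed, and 10 of the 14 had a difference below 0 (median -0.11). EDNRA, an endothelin receptor, was higher at 0.43 (SE 0.09, limma's adjusted p = 0.00163). CAV1, the caveolar protein that binds NOS3, was lower at -0.43 (SE 0.11, limma's adjusted p = 0.00908), and so was DDAH2, which clears an inhibitor of nitric oxide synthases, at -0.24 (SE 0.07, limma's adjusted p = 0.0171). JAG1 was lower at -0.26 (SE 0.06, limma's adjusted p = 0.00544). Of 11 hypoxia-response genes 2 were higher, ADM at 0.36 (SE 0.11, limma's adjusted p = 0.0269) and EPAS1 (HIF-2alpha) at 0.27 (SE 0.07, limma's adjusted p = 0.00816).

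Some markers of other cell types also passed the FDR between Large White and Creole pigs, where 11.3% of all probes did. For cortex, leukocyte, pericyte and lymphatic markers the count rests on 1 gene each. Adipocyte markers were lower in Large White at 3 of 4 genes (median -0.75), led by ADIPOQ at -1.62 (SE 0.22). Their summed linear intensity lay between 1000 and 1557 in Large White, between 1115 and 3168 in Creole and between 1041 and 2943 in F1 pigs. Medulla markers were higher in Large White at 3 of 4 genes (median 0.31), with sums of 523517 to 760590 in Large White and 501884 to 664343 in Creole pigs. Of 5 cortex markers STAR passed, lower in Large White at -0.34 (SE 0.08), while 3 of the 5 had a difference above 0 (median 0.06). Of 6 leukocyte markers CSF1R passed, lower at -0.29 (SE 0.09), while 4 of the 6 had a difference above 0. Red blood cell and platelet markers gave 0 calls. Of 9 markers of pericytes and smooth muscle 1 passed, RGS5 of pericytes, higher in Large White by 0.84 (SE 0.13), and of 3 lymphatic markers LYVE1 passed at 0.45 (SE 0.13). None of the markers is listed at 0. Within groups KDR correlated with the mean level of adipocyte markers at r = -0.20, of medulla markers at 0.05 and of pericyte and smooth muscle markers at -0.27 over 36 pigs. With leukocyte markers r was -0.31 and with platelet markers 0.26. The part of these markers in the breed difference of KDR was not tested. Between HS and TN, where 0.886% of all probes passed, red blood cell, platelet, leukocyte, adipocyte, medulla and pericyte markers gave 0 calls each. The difference was below 0 for all 4 medulla (median -0.17), all 4 red blood cell (median -0.11) and all 5 cortex markers (median -0.08). Of the cortex markers 1 passed, NR5A1, lower by 0.25 in HS (-0.25, SE 0.06, limma's adjusted p = 0.0254).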

How the data were processed

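Adrenal RNA of 36 pigs was measured on 1-colour Agilent arrays. The authors scanned the arrays and extracted spots with Feature Extraction 10.10.1.1, and the deposited scanner files hold spot intensity that is not normalized. The authors' deposited series table holds log2 values of 45348 probes, quantile normalized. For 34 member probes it differed from the values used here by 0.0337 at most, and it was run as an alternative. Columns of other samples numbered 0.

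After removal of control spots and outlier spots, each spot's median pixel value was quantile normalized between arrays, repeated spots were averaged per probe, and values were put on the log2 scale. The filter kept probes detected well above background in 9 or more of the 18 TN, or of the 18 HS, arrays (45943, of which 89 had a missing spot, left out of the fit of that probe). No member spot was saturated. Tests used limma 3.58.1 in R 4.3.3 on temperature and breed with Benjamini-Hochberg adjustment over all probes. Two-sided tests and 95% intervals come from the same fit. The procedure was tested on simulated data. Alternatives were the authors' values, normexp (offset 50), the 75th percentile of the processed signal, other filters, the slide as a block and each pig left out.

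The members and gene lists were chosen with earlier results of these data known. All probes matched to the 10 genes by name or transcript were reported, and other genes only as list members, or as the 3 most alike genes. Gene positions are RefSeq's on Sscrofa11.1, and the probes' own genome positions and a genome were not used here. The number of arrays limits the precision.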

Additional observations from a re-analysis of the deposited data

Results flagged for a closer look

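In 3 of 60 combinations of gene and group, the highest or lowest of 6 pigs lay farther from its neighbour than Dixon's 95% limit allows, and chance gives this in about 1 in 20 groups. For VEGFA, TN Creole replicate 5 lay at 9.97 while the other 5 pigs of its group lay between 9.63 and 9.72. For FLT1, TN Large White replicate 4 lay at 7.45, below a group of 7.80 to 8.004. For ANGPT2, HS Large White replicate 4 lay at 8.08, below a group of 8.49 to 8.67. Reference probes only were examined in this way. HS Large White replicate 4 was also the lowest of its group at the second ANGPT2 probe, A_72_P185266 (7.28, against 7.64 to 7.77), and TN Large White replicate 4 at the other 3 FLT1 probes, such as A_72_P305829 (7.02, against 7.44 to 7.78). TN Creole replicate 5 was the highest of its group at none of the other 4 VEGFA probes. Leaving these pigs out in turn changed no call for these genes.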

How the results depend on the processing

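Under the 42 alternatives, 0 member probes passed the FDR for HS against TN, for the interaction or for F1 against its parents. KDR A_72_P380298 passed in all 42 for Large White against Creole, with a difference of 0.61 to 0.76 and limma's adjusted p from 4.22e-05 to 0.000937. With the slide as a block, 2 member probes passed for Large White against Creole (PECAM1 A_72_P218027 besides KDR), and 890 of all probes passed for HS against TN and 299 for F1 against its parents. Leaving out each pig in turn gave 1 to 3 member probes for Large White against Creole: 3 without HS Large White replicate 1 (NOS3 joined at 2 probes), and 2 without TN Creole replicate 1 (NOS3), or without HS F1 replicates 1, 2, 3 or 4, TN F1 replicate 6, TN Large White replicate 3, TN Creole replicate 5 or HS Creole replicate 6, each of which brought in PECAM1 A_72_P218027. The F test over 3 breeds gave 1 to 2, with 2 without HS Large White replicate 1. The interaction gave 0 to 1 of all probes. Of all probes, 221 to 812 passed for HS against TN, with 221, 243 and 261 without TN F1 replicates 3, 2 and 4, 241 without HS F1 replicate 2, 259 without TN Large White replicate 2, 231 and 812 without HS Large White replicates 4 and 5, and 727 without HS Creole replicate 6. For F1 against its parents, 106 to 222 passed, with 119 and 114 without TN F1 replicates 1 and 2, and 106 and 109 without HS F1 replicates 3 and 4.

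Signs turned only where the difference was near 0 and not called. With normexp, HS minus TN was 0.0139 for TEK and -0.0082 for CDH5, and F1 minus its parents was 0.0011 for VEGFA and -0.0134 for ANGPT1. With the processed signal these were 0.0042, -0.0293, 0.0478 and -0.0265, and with the slide as a block ANGPT1 was -0.0174. Leaving out 1 pig gave, for HS minus TN, -0.0014 to 0.0796 in ANGPT1, -0.0684 to 0.0347 in KDR, -0.0257 to 0.0274 in TEK and -0.0138 to 0.032 in CDH5. For F1 minus its parents it gave -0.034 to 0.0338 in ANGPT1, -0.0917 to 0.0162 in ANGPT2 and -0.0213 to 0.0101 in VEGFA, and for Large White minus Creole -0.0085 to 0.0337 in PECAM1 and 0.23 to 0.29 in NOS3. Averaging every probe of a gene gave 7 in place of 6 genes above 0 for HS against TN. The cause of these changes was not tested. No paired analysis was possible because replicate numbers were given in accession order and the labels pair no pigs.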
